A study of Mus musculus with 10 samples.

Results

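The genes described here encode the nuclear subunits of mitochondrial complex I. They were chosen by symbol alone: Nduf, then a, b, c, s or v, then digits. The rule matched 36 of the 24736 gene symbols of the mRNA table, and all 36 passed the filter on low values. Whole eyeballs of female mice of the outbred Kunming stock, 4 weeks of age per the labels, gave the RNA. Control animals were exposed to natural light (libraries A and B, n = 2), and treated animals to blue light from an 18 watt lamp inside a dark container (libraries A, B and C, n = 3). The titles carry day 14. No genetic change is labelled in either group. The labels do not say whether libraries came from separate animals or from pools, so a p-value reflects the spread among these libraries alone, and that spread may be technical.

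Complex I oxidises NADH from fuel breakdown, passes the electrons to ubiquinone and pumps protons across the inner mitochondrial membrane. Its peripheral arm holds an N module, which takes electrons from NADH, and a Q module, which hands them to ubiquinone, while the membrane arm pumps protons. In the retina, photoreceptors pack mitochondria into their inner segments, because pumping ions and renewing outer segments takes much ATP. Mitochondrial DNA encodes the hydrophobic core of the membrane arm. None of 13 symbols for mitochondrially encoded genes matched the table, so both genomes cannot be compared here.

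An eyeball holds retina, lens, cornea, pigment epithelium and attached muscle and fat. The listed markers of all of these were in the table, with summed levels of 18596 to 21130 TMM-normalised CPM, counts scaled to a common library total, for 7 lens genes and 4740 to 5671 CPM for 3 corneal genes. The 7 adipocyte genes summed to 4.20 and 6.87 CPM for control A and B and to 15.6, 5.15 and 13.1 CPM for blue A to C, so blue A and C were the highest. Library totals ran from 87071487 to 107660103 estimated counts, and the 36 members took 0.0962% to 0.105% of them. The ribosomal RNA gene Rn45s took 4.30% of control A and 8.69% to 14.4% of the other libraries. A level is an average over these tissues. A lower level can come from fewer cells of a type or from less RNA per cell, which bulk RNA cannot tell apart.

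The first question was whether any complex I subunit gene differs between blue and natural light. In edgeR's quasi-likelihood test 0 of the 36 passed an adjusted p of 0.05, beside 2.22% of all 18988 genes tested (0.664% higher and 1.55% lower). At an unadjusted p under 0.05 there were 2 members, Ndufa10 and Ndufa7, both lower under blue light, beside 16.3% of all genes. DESeq2 called 1 member, Ndufa10, beside 9.04% of all genes, and limma-voom 0, beside 2.41%. Log2 fold changes (log2FC, blue minus natural light) were positive for 17 members and negative for 19, with a median of -0.012 against -0.0056 over all tested genes. The median size of the log2FC, sign set aside, was 0.08 for the members and 0.18 for all genes. It was 0.07 for 59 genes of complex I assembly factors, complexes II to IV and ATP synthase. Control and blue libraries did not overlap for 5 of the 36 members, beside 35.6% of all genes. These were Ndufa10, Ndufa7 and Ndufc1 with blue lower, beside 20.1% of all genes, and Ndufa8 and Ndufs8 with blue higher, beside 15.6%. Most members are well above the filter, and the share depends on that: among 12880 genes with a mean of at least 5 CPM, 3.97% passed and 0 of 35 members did.

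A p that misses the threshold does not show that a level stayed the same, so the intervals matter. The 95% interval reached a median of 0.30 to either side of the log2FC, a factor of 1.23. For 33 of 36 members the whole interval lay inside a 1.5-fold change in either direction, against 47.4% of all tested genes. The exceptions were Ndufa1, Ndufb3 and Ndufs5. Narrow intervals were not particular to complex I subunits. Of 59 genes of complex I assembly factors, complexes II to IV and ATP synthase, 50 (84.7%) lay inside the same limits. Over the 5 libraries the coefficient of variation of a member's CPM had a median of 9.33% and ran from 1.88% for Ndufs8 to 118% for Ndufs5. Smaller differences than these intervals allow were not detectable with 5 libraries.

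**Figure D1:**
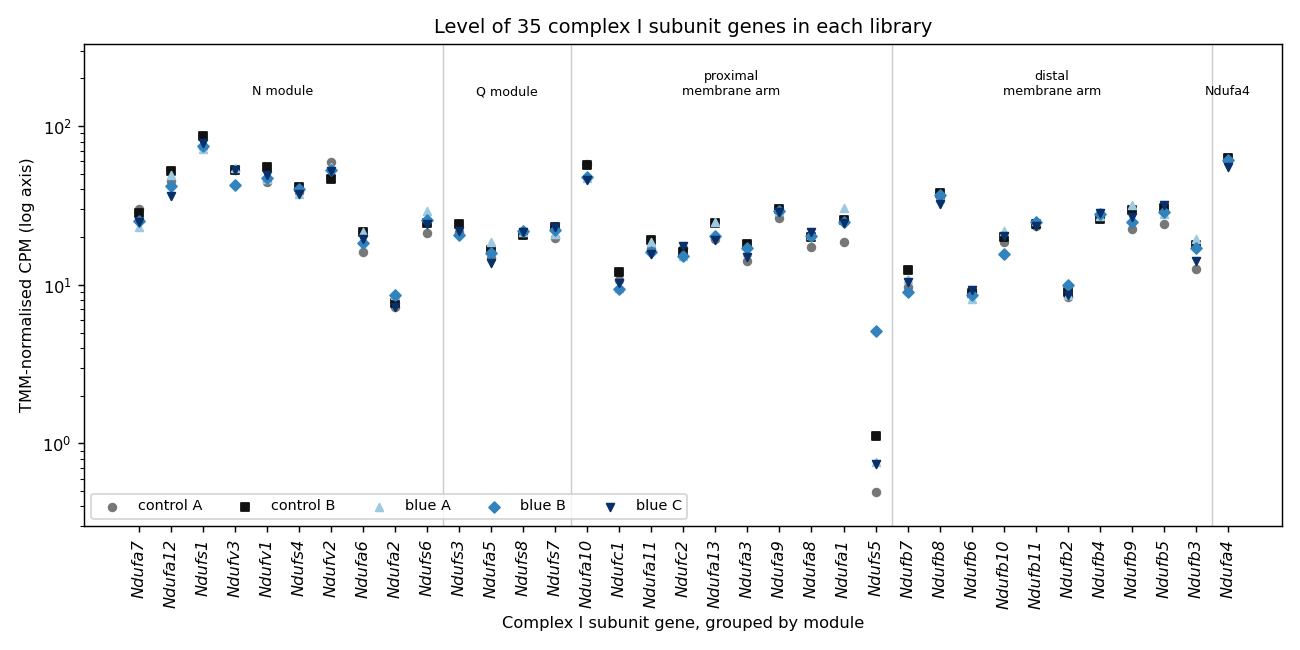
Level of 35 of the genes in TMM-normalised CPM on a log axis, with 1 point per library (grey and black: control A and B, shades of blue: blue A, B and C), grouped by module. The 5 points of a gene lie close together except for Ndufs5, where blue B stands at 5.09 CPM and the other libraries between 0.494 and 1.11 CPM.

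The promoters of 4 members are shown as examples, and none of the 4 passed in edgeR. Ndufa10 had the smallest p, Ndufa8 and Ndufs6 were among the positive members with the smallest p, and Ndufs5 varied the most. The bases precede the annotated gene, from RefSeq (GRCm38.p6, the assembly called mm10), on the gene's strand, here minus in every case. For Ndufa10 only the 183 bases outside the annotated gene are shown. Capitals mark matches to the core of the nuclear respiratory factor (NRF1) motif, which reads GCGC, then A, any base and GCGC, and to the estrogen-related receptor letters AAGGTCA, on either strand. The spans are chr1:92473826-92474008 for Ndufa10, chr2:36049339-36049588 for Ndufa8, chr13:73328483-73328732 for Ndufs6 and chr4:123718187-123718436 for Ndufs5.
Ndufa10: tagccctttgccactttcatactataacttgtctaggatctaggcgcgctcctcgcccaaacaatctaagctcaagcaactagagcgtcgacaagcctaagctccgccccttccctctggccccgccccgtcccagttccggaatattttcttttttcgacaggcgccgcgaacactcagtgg
Ndufa8: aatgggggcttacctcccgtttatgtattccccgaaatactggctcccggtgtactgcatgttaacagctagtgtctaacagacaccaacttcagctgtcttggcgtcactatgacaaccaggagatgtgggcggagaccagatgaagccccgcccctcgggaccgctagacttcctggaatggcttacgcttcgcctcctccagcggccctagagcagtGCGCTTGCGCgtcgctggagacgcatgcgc
Ndufs6: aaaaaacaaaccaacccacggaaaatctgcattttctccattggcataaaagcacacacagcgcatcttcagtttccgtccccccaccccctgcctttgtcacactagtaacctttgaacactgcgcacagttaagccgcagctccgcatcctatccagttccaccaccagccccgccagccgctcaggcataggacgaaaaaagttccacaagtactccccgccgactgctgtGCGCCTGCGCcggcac
Ndufs5: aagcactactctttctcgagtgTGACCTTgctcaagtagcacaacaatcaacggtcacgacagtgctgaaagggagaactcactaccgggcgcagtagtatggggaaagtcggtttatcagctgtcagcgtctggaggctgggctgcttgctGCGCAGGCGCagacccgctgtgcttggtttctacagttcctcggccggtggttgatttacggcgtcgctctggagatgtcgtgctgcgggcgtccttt

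Of the 36 members 32 had a promoter in the RefSeq table, and the 250 bases before each start were searched on both strands. The NRF1 letters were found in 6 of 32 member promoters (18.8%) and in 7.23% of 14150 tested genes with a promoter. Its members were Ndufa5, Ndufa8, Ndufa11, Ndufb4, Ndufs5 and Ndufs6. The estrogen-related receptor letters AAGGTCA were in 3 of 32 (9.38%, against 3.87%), those of ETS factors and GABP, CCGGAAG, in 3 (9.38%, against 12.3%), and those of YY1, CCATNTT, in 6 (18.8%, against 12.1%). GGATTA, the letters bound by the photoreceptor factor CRX and its relative OTX2, were in 4 (12.5%, against 6.61%): Ndufa11, Ndufa12, Ndufb7 and Ndufs4. The log2FC of these 4 were -0.09, -0.20, -0.13 and -0.06, and none passed. Of all 36 members 19 had a negative log2FC, and a link between a motif and the log2FC was not tested. For Ndufa10 neither the 183 bases shown nor the 250 searched hold any of the 5 motifs. A match describes letters and is not a measured binding site. Some of the motifs rest on few members.

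The N module, which carries the flavin and most of the iron-sulfur clusters, had 10 members, of which 0 passed. Their log2FC had a median of -0.06 and ran from -0.26 to 0.20. Ndufa7, an accessory subunit of the peripheral arm (chromosome 17, 33824572 to 33838316), stood at 30.2 and 28.3 CPM in control A and B and at 23.1, 25.3 and 25.0 CPM in blue A to C. All 3 blue libraries were below both controls. Its log2FC was -0.26 (SE 0.089, unadjusted p = 0.0273, adjusted p = 0.232).

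The core subunits of this module showed smaller differences, and their groups overlapped. Ndufv1, which binds NADH and the flavin, had 44.2 and 55.2 CPM in control A and B and 46.2, 46.9 and 49.4 CPM in blue A to C. The blue values lay between the 2 controls, with a log2FC of -0.06 (SE 0.11, adjusted p = 0.836). Ndufv2, its iron-sulfur partner, had 59.3 and 46.1 CPM in the controls and 55.7, 52.7 and 52.0 CPM under blue light, again between the controls (log2FC 0.02, SE 0.12, adjusted p = 0.959). Ndufs1 carries further clusters on the way to ubiquinone. It had 73.9 and 86.3 CPM in control A and B and 71.9, 75.2 and 78.6 CPM in blue A to C (log2FC -0.09, SE 0.094, adjusted p = 0.705). Control B was its highest library and blue A its lowest.

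Among the accessory members of the N module, the zinc-binding Ndufs6 had the highest log2FC, 0.20 (SE 0.12, adjusted p = 0.478). It stood at 21.2 and 24.7 CPM in control A and B and at 29.2, 25.8 and 24.3 CPM in blue A to C. All blue libraries lay above control A, and blue C lay below control B. Ndufa12, a late-assembled subunit, had 45.4 and 52.5 CPM in the controls and 49.3, 42.2 and 36.0 CPM under blue light (log2FC -0.20, SE 0.15, adjusted p = 0.569). Blue A lay between the controls and the other blue libraries below both. Ndufa2, with 7.21 and 7.70 CPM in the controls and 7.25 to 8.65 CPM under blue light, had a log2FC of 0.13. Ndufs4, often mutated in Leigh syndrome, had -0.06, Ndufv3 -0.08 and Ndufa6, which holds the acyl carrier protein, 0.08.

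The Q module had 5 members, none called, with a median log2FC of 0.03. Ndufs3, a structural core subunit, had 21.7 and 24.3 CPM in the controls and 21.6, 20.5 and 21.9 CPM under blue light (log2FC -0.10, SE 0.096, adjusted p = 0.665). Both groups overlap, with control B the highest library.

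Ndufs7 and Ndufs8 carry the last iron-sulfur clusters before ubiquinone. Ndufs7 had 19.6 and 23.1 CPM in control A and B and 21.0, 22.0 and 23.0 CPM in blue A to C (log2FC 0.04, SE 0.11, adjusted p = 0.893). Ndufs8 had 21.3 and 20.7 CPM in control A and B and 21.4, 21.8 and 21.5 CPM in blue A to C. Its groups did not overlap, yet its 5 values varied the least of all members and the log2FC was 0.04 (SE 0.083, adjusted p = 0.878). Its interval ran from -0.17 to 0.24. Ndufa5, the accessory member, had a log2FC of 0.03.

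**Figure D2:**
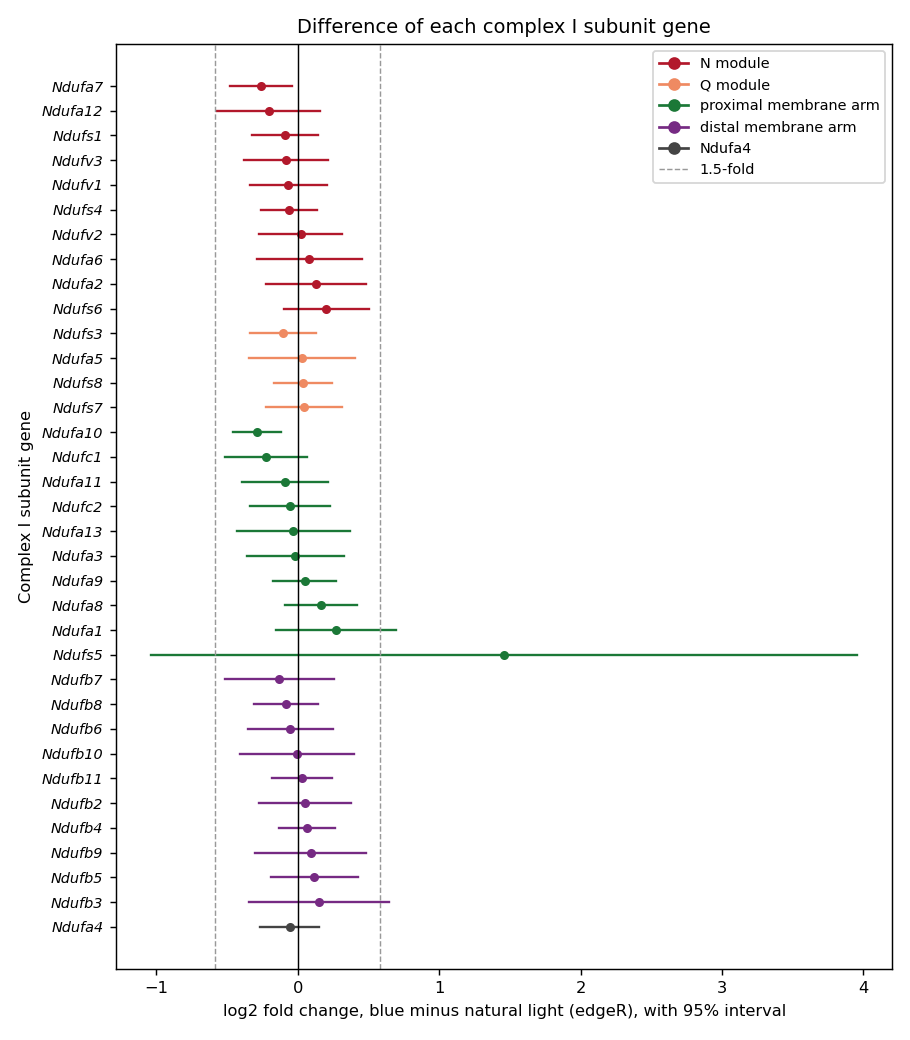
Log2FC of 35 of the genes (blue minus natural light, points) with its 95% interval (lines), coloured by module, with dashed lines at a 1.5-fold change. The intervals of Ndufa10 and Ndufa7 leave out 0, and those of Ndufa1, Ndufb3 and Ndufs5 cross a dashed line.

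The proximal membrane arm, next to the peripheral arm, had 10 members, none called, with a median log2FC of -0.02. Ndufa10, an accessory subunit with the fold of a nucleoside kinase (chromosome 1, 92439486 to 92473825), had the smallest p of all members. It stood at 58.0 and 56.5 CPM in control A and B and at 47.1, 47.8 and 45.9 CPM in blue A to C. The gap between the groups was wider than the spread within either. Its log2FC was -0.29 (SE 0.068), a level 0.820 times that of the controls, with an interval from -0.45 to -0.12. The unadjusted p was 0.00601 and the adjusted p 0.117 in edgeR. In DESeq2 the log2FC was -0.27 and the adjusted p 0.00788. In the other alternatives the adjusted p ran from 0.0848 with a mean CPM of at least 5 to 0.747 with the letter as a replicate block. That block leaves blue C no part in the difference, since no other library has its letter.

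Ndufc1, a small membrane subunit, had 10.7 and 12.0 CPM in the controls and 9.57, 9.44 and 10.2 CPM under blue light (log2FC -0.22, SE 0.12, adjusted p = 0.419). All blue libraries lay below both controls, by a small margin. Ndufa8, which faces the intermembrane space, had 17.3 and 19.9 CPM in the controls and 20.5, 20.4 and 21.7 CPM under blue light. All blue libraries lay above both controls (log2FC 0.16, SE 0.10, adjusted p = 0.4998). Ndufa1, encoded on the X chromosome, had 18.6 and 25.5 CPM in control A and B and 30.4, 24.8 and 24.6 CPM in blue A to C (log2FC 0.27, SE 0.17, adjusted p = 0.511). Control A stood low, and control B exceeded 2 of the blue libraries.

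Ndufs5, also a subunit of the intermembrane space face, had the lowest CPM and the widest interval. Estimated counts of 55 and 90 were found for control A and B, and of 77, 547 and 67 for blue A to C, or 0.494, 1.11, 0.762, 5.09 and 0.736 CPM. Blue B was high, and the other blue libraries lay between the controls. The log2FC was 1.46 (SE 1.01, adjusted p = 0.549) and -0.07 (adjusted p = 0.967) without blue B, so this 1 library decides the value. No other gene of the table overlaps the annotated span of Ndufs5 (chromosome 4, 123712710 to 123718186). Ndufa9, Ndufa3, Ndufa13, Ndufa11 and Ndufc2 had log2FC from -0.09 to 0.05.

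The distal membrane arm had 10 members, the Ndufb genes, none called and none with groups that did not overlap. The median log2FC was 0.04, and the range from -0.13 for Ndufb7 to 0.15 for Ndufb3 was the narrowest among the modules with 10 members. Ndufb5 had the smallest p. It stood at 24.2 and 30.3 CPM in control A and B and at 27.9, 28.9 and 31.8 CPM in blue A to C (log2FC 0.12, SE 0.13, adjusted p = 0.715). Control A was the lowest library, and control B lay among the blue values. Ndufb3, a small membrane subunit, had 12.6 and 17.8 CPM in the controls and 19.5, 17.1 and 14.2 CPM under blue light, with an interval from -0.34 to 0.65. Ndufb11, the other X-linked member, had 23.5 and 24.3 CPM in the controls and 23.4 to 25.1 CPM under blue light (log2FC 0.03). Ndufb6, with a mean of 8.99 CPM in the controls and 8.68 CPM under blue light, was among the members with the lowest levels.

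Ndufa4 was first described with complex I and is now assigned to cytochrome c oxidase, complex IV. It had 60.5 and 63.5 CPM in control A and B and 62.3, 61.5 and 55.2 CPM in blue A to C (log2FC -0.05, SE 0.085, adjusted p = 0.816). Blue C was the lowest library, and the others lay between 60.5 and 63.5 CPM. Its relative Ndufa4l2, a hypoxia-induced gene outside the rule, had 3.49 and 2.89 CPM in the controls and 3.55, 1.93 and 2.55 CPM under blue light (log2FC -0.26, adjusted p = 0.745). The acyl carrier Ndufab1, also outside the rule, had 14.4 and 17.5 CPM in the controls and 18.9, 19.7 and 18.1 CPM under blue light. Its blue libraries all lay above the controls, with a log2FC of 0.24 (SE 0.12, adjusted p = 0.389).

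Annotated spans of 8 members overlap another gene of the table. Without stated strand, reads inside the shared bases may not be assignable to either gene. The shared part ran from 0.044% of the member's span for Ndufv2 to 44.2% for Ndufs1. For Ndufs1 the antisense gene Ino80dos covers 44.2% of the span, at 4.51 to 7.48 CPM in the 5 libraries. Ndufv2 and Ankrd12 share 10 bases. With overlapping genes summed, 0 members passed in edgeR, and the value of Ndufv2 was then mostly that of Ankrd12, which had 263 to 359 CPM.

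The spread between the controls was as large as the difference between the groups or larger for most members. Control B exceeded control A for 27 of 36 members, against 49.97% of all tested genes, with a median difference of 0.17 in log2 CPM. For 29 of the 36 the gap between the controls was wider than the log2FC, as it was for 52.4% of all genes. These measures are unlike, because a gap between single libraries varies more than a difference of group means. Such a gap is often the wider one even without a light effect. Ndufa10 and Ndufa7 were among the 7 with a wider log2FC. Control A was the lowest library for 14 of the 36, against 23.7% of all genes, and control B the highest for 13, against 19.4%. Blue A was the highest for 11, against 24.4%. With library totals as the only scaling, control B was higher for 20 of 36, but the median of all genes then shifted to -0.15, and relative to it the members again differed by 0.17.

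**Figure D3:**
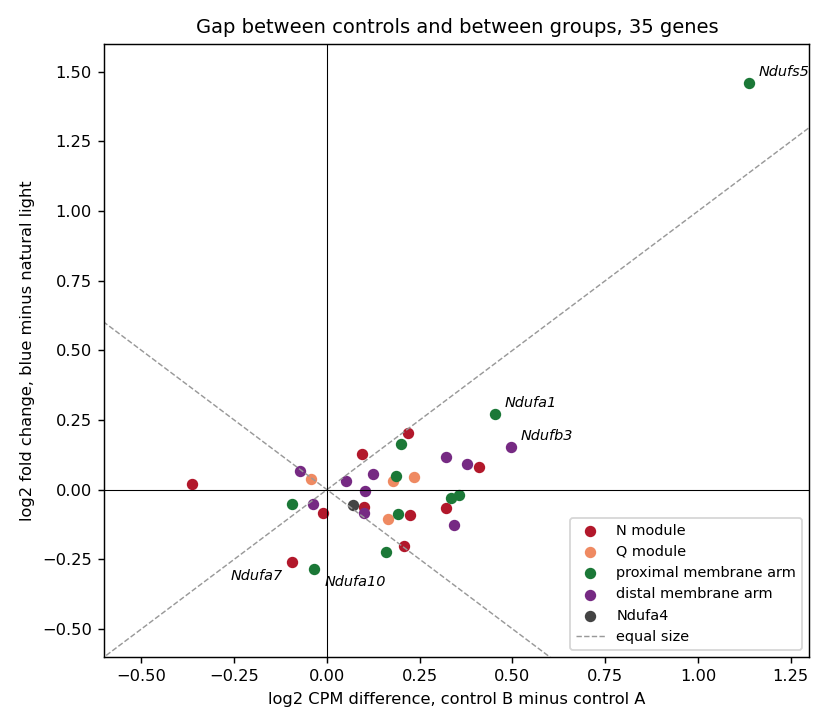
Each point is 1 of 35 genes: the log2 CPM difference of control B minus control A across, and the log2FC of blue minus natural light up, coloured by module. Points between the dashed lines to the left and right of 0 differ more between the 2 controls than between the groups. This holds for 28 of the 35. A gap between single libraries varies more than a difference of group means.

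Markers of skeletal muscle, a tissue rich in mitochondria, also differed between the controls. All 12 listed genes, among them Ckm and Acta1, were higher in control B than in control A, and 0 were called between the groups. Their mean level, in log2 CPM after subtracting each gene's mean, was -0.90 for control A and 0.93 for control B. It was 0.78, -0.53 and -0.28 for blue A to C. Summed levels were 660 and 1392 CPM in the controls, against 693 to 1344 CPM under blue light. A gene with a much wider gap between the controls than the others weighs on this mean level and on the covariate made from it. The median gap of the 12 was 1.21 in log2 CPM. The member level was -0.09 for control A, 0.08 for control B, and 0.03, 0.04 and -0.05 for blue A, B and C. An unplanned level without Ndufs5 was -0.06 and 0.08 for the controls, 0.04 for blue A and -0.03 for both other blue libraries. Control B and blue A were then high in both lists, while with all 36 members blue B stood above blue A. The 3 corneal genes were also all higher in control B than in control A. Their level was -0.16 and 0.09 for the controls and 0.08, 0.09 and -0.09 for blue A to C. Of the 3 muscle forms of complex IV subunits, Cox6a2 and Cox7a1 had 6.44 and 2.17 CPM in control A and 13.6 and 4.35 CPM in control B. The third, Cox8b, had nearly the same level in both, 9.50 and 9.62 CPM. The part of muscle or cornea in the member levels was not tested between the controls. With the muscle level as a covariate between light groups 0 members passed in edgeR, and 3 had an unadjusted p below 0.05.

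**Figure D4:**
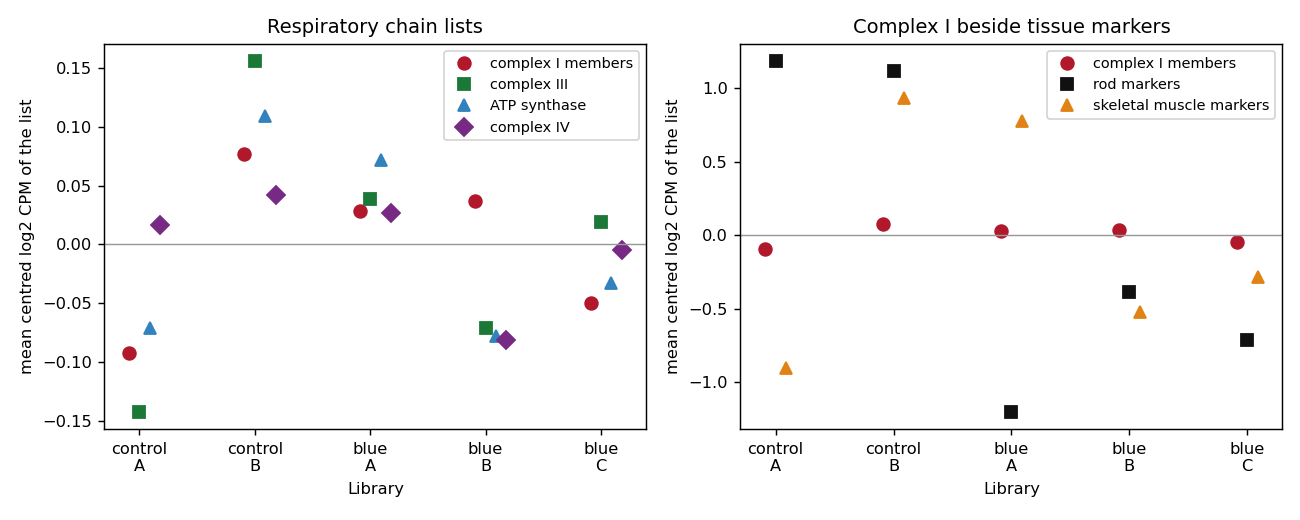
Mean centred log2 CPM of gene lists in each library, the respiratory chain lists on the left and the complex I members with rod and muscle markers on the right, on different vertical scales. The respiratory lists stay within 0.16 of 0, while the rod markers stand above 1.1 in both controls and below -0.38 in every blue library.

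The rest of the respiratory chain was examined with lists. Of 17 listed assembly factors of complex I, 0 passed, with a median log2FC of -0.02. Dmac1, a factor for the distal membrane arm, had 12.4 and 12.5 CPM in the controls and 9.12, 9.85 and 10.5 CPM under blue light (log2FC -0.34, SE 0.11, adjusted p = 0.224). All blue libraries lay below both controls. Nubpl, which delivers iron-sulfur clusters to complex I, had a log2FC of -0.47 (SE 0.19, adjusted p = 0.299), also without overlap.

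Succinate dehydrogenase, complex II, had 0 of 4 genes called, with Sdhb at 0.18 (adjusted p = 0.434) as the smallest p. Complex III had 0 of 9, with Uqcr11 at 0.17 (adjusted p = 0.572). Complex IV had 0 of 13, with Cox6a1 at 0.21 (adjusted p = 0.443), and its 3 muscle forms had 0, with Cox8b at 0.15 (adjusted p = 0.668). Of 16 genes of ATP synthase and its inhibitor 0 passed. The smallest p was that of Atp5g1, a c-subunit gene, with 25.0 and 23.6 CPM in the controls and 21.0, 19.5 and 19.5 CPM under blue light (log2FC -0.28, SE 0.091, adjusted p = 0.208). Of the 59 genes of assembly factors and complexes II to ATP synthase together, without the muscle forms, 3 had an unadjusted p under 0.05. The median log2FC of these lists ran from -0.02 to 0.004, beside -0.012 for the complex I members.

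Of 18 genes of mitochondrial mass and biogenesis 0 passed in edgeR and limma-voom, and 2 had an unadjusted p below 0.05. Ppargc1b, a coactivator that raises mitochondrial gene expression, stood at 86.1 and 95.5 CPM in the controls and at 50.5, 58.1 and 66.2 CPM under blue light. All 3 blue libraries lay far below both controls, with a log2FC of -0.64 (SE 0.13, adjusted p = 0.0763). DESeq2 called it (log2FC -0.62, adjusted p = 0.000942). Ppara, a lipid-sensing nuclear receptor, had 37.2 and 17.4 CPM in the controls and 11.9, 17.0 and 16.0 CPM under blue light (log2FC -0.87, SE 0.33, adjusted p = 0.279), with control A apart from the rest. It passed with the muscle level as a covariate (log2FC -0.80, adjusted p = 0.0281 in edgeR). The respiratory factor gene Nrf1 had a log2FC of -0.20 (adjusted p = 0.402) and the factor Tfam, which packages mitochondrial DNA, 0.12 (adjusted p = 0.688).

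**Figure D5:**
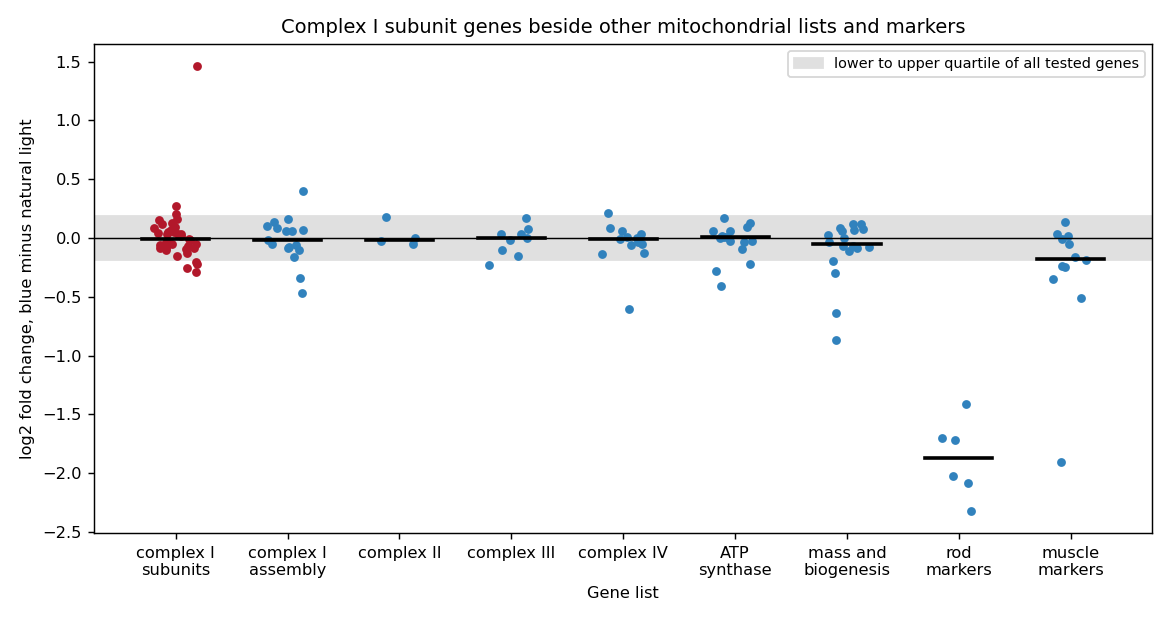
Log2FC of every gene of a list (points) with the list's median (black bar), and the range from the lower to the upper quartile of all tested genes as a grey band. The complex I subunits and the other respiratory lists centre on 0, and the 6 rod markers lie at or below -1.41.

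Rods are the most numerous cells of the mouse retina, and their markers give the scale of the change in the same libraries. All 6 listed rod genes fell, with a median log2FC of -1.87. Their adjusted p ran from 0.0183 to 0.0311 in edgeR. In edgeR 0 of the 6 passed without control A (adjusted p from 0.149 to 0.201), without control B (0.102 to 0.143) or without blue C (0.0880 to 0.136), while all 6 kept a negative log2FC and an unadjusted p under 0.05. These fits without 1 library were added for the rod genes after their values were seen. Their mean centred level in log2 CPM was 1.18 and 1.12 for control A and B, against -1.20, -0.39 and -0.71 for blue A to C. The summed level of the 36 complex I members was 998 and 1069 CPM in the controls and 1034, 1000 and 985 CPM. Its blue libraries overlapped the controls, with blue C the lowest and control B the highest. The difference between the rod and complex I lists was not tested.

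Single markers of 3 other cell types also passed in edgeR. Arr3, the cone arrestin and 1 of 4 cone genes, fell from 68.1 and 53.6 CPM in control A and B to 30.9, 33.7 and 33.5 CPM in blue A to C (log2FC -0.90, adjusted p = 0.0281). Slc1a3, a glutamate transporter and 1 of 3 genes listed for Muller glia, rose from 115 and 114 CPM to 220, 199 and 209 CPM (log2FC 0.87, adjusted p = 0.0146). The other glial genes had a negative log2FC, so the list did not move as one. Cfd, the adipsin gene of fat cells and 1 of 7 adipocyte genes, rose from 0.287 and 0.321 CPM to 2.01, 1.14 and 2.22 CPM (log2FC 2.55, adjusted p = 0.0468). Of these 7 genes 6 had a positive log2FC, and Cidec and Lep were at 0 in both controls. Arr3 passed in no fit without 1 library, nor with library totals as the only scaling (adjusted p = 0.0615). Slc1a3 was lost without control A, control B or blue C (adjusted p from 0.0786 to 0.119). Cfd passed without blue B but not without any other single library, in limma-voom (adjusted p = 0.118) or with the muscle covariate (adjusted p = 0.0510). The lists for pigment epithelium, lens, cornea, muscle and red blood cells had 0 calls, with 2 red blood cell genes at an unadjusted p under 0.05. The part of these cell types in the member levels was not tested.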

How the data were processed

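The mRNA table of the series was used here, and the miRNA table was not. Its 5 columns carry sample titles, and the source name gives the group. Per the labels' protocols, Trizol RNA of eyeballs was depleted of ribosomal RNA with biotin probes, then fragmented and randomly primed. Tools listed in the submitters' processing notes, with no role given, are HISAT2, StringTie, bcl2fastq 2.0, limma and DESeq2, and the build is mm10. The deposited values, 1 row per symbol, were read as estimated counts that the authors had not normalised, because StringTie is named. They are whole numbers, so rounding changed nothing. Over all libraries 1051 values equal 4 and 751 equal 3, so 1 fragment may add more than 1 unit, and no counting intervals are given. Whether counting used strand, and how near-identical gene copies were treated, is not stated in the labels.

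All genes were fitted at once with edgeR 4.0.16 under R 4.3.3 (TMM factors, genes kept by filterByExpr, quasi-likelihood F-test, Benjamini-Hochberg adjustment over all tested genes, threshold 0.05). The pipeline was run on simulated data with larger changes than those of the members other than Ndufs5. That run does not bear on changes of the members' size. The 95% intervals use the standard error (SE) and the fit's degrees of freedom. The members, lists and tests were chosen with earlier results of these data known. Named were the 5 members with the smallest p in each direction, the core subunits, Ndufa4, and the members with the 3 lowest and 3 highest levels. Of each other list, genes that passed, or else the 1 with the smallest p, were named, for the respiratory chain, mitochondrial and cone, glial and fat lists; the rod genes and the marker lists with no call are given as lists. Other named genes, and the 1.5-fold limit, were chosen after their values were seen. For 1 member and 1 marker gene, which stay in the fits and counts, single values are not reported here. Alternatives were other scalings and filters, DESeq2 1.42.0, limma-voom (limma 3.58.1), values divided by 4, overlapping genes summed, a replicate block, a muscle covariate, and leaving out each library.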

Additional observations from a re-analysis of the deposited data

How the results depend on the processing

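In edgeR 0 of the 36 members passed under every alternative fitted in edgeR and in limma-voom; DESeq2 called 1, Ndufa10. Between 0 and 3 members had an unadjusted p under 0.05. The other respiratory chain lists and that of mitochondrial mass and biogenesis together had 0 calls, except 1 in DESeq2 (Ppargc1b) and 1 with the muscle covariate (Ppara), both of the mass and biogenesis list. Over all genes 421 passed, and the count was 274 with library totals as the only scaling (124 higher and 150 lower, against 126 and 295), 1715 in DESeq2, 666 with the muscle covariate, and from 0 to 311 with 1 library left out. It was 8 without control A, 0 without control B, 277 without blue B and 11 without blue C. With a lone control, its spread was assumed to be like that of the blue libraries. With the letter as a replicate block 0 genes and 0 members passed in edgeR, with 1455 genes and 0 members at an unadjusted p under 0.05. Only blue C carries its letter, so the block fits that library exactly and leaves it no part in the difference. Ndufa10, for example, had a log2FC of -0.271 with the block and -0.271 without blue C. The block also leaves fewer degrees of freedom. Deviations from the group mean had correlations of -0.18 and -0.15 between libraries of the same letter. Control A and control B deviate from their shared mean by equal and opposite amounts. The correlations between libraries of different letters, 0.15 and 0.18, are therefore the same values with the sign reversed. These values are not separate checks and cannot decide whether the letters mark pairs. The letters are not taken as pairs outside the block fit. A count of 0 members in fits that call few genes at all says nothing about stability.

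The median log2FC of the members ran from -0.05 without control A to 0.05 without control B. Of 175 values of the 16 members followed over alternatives that keep all libraries, 174 kept their sign. The exception was Ndufv2, at -0.26 (adjusted p = 0.189 in edgeR) with overlapping genes summed, where most counts come from Ankrd12. With 1 library left out 6 of 80 changed sign. The values then ran from -0.011 to 0.29 for Ndufb5, from -0.043 to 0.16 for Ndufs7, from -0.19 to 0.10 for Ndufv1, from -0.15 to 0.24 for Ndufv2, from -0.17 to 0.025 for Ndufs1 and from -0.071 to 2.15 for Ndufs5. With library totals as the only scaling, the member level of control B was -0.028 in place of 0.08; the 4 other libraries moved by less than the spread between replicates. The causes of these shifts were not tested. The number of libraries, with 2 controls, limits the precision.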
